A study of Mus musculus with 16 samples.

Results

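Mouse skin treated with the detergent sodium dodecyl sulphate (SDS) was compared between day 5 and day 3, a step in which genes of the cornifying epidermis were higher and genes of the dermis, fat, vessels and neutrophil inflammation were lower. All libraries of SDS alone labelled day 5 or day 3 were taken, which gave 4 of the 16 libraries of the series, 2 at each day, and all 32078 genes of the deposited table were followed. Each library was total RNA of whole skin from 7-week-old mice. The other 12 libraries were SDS alone at days 0 and 1 and SDS with Topsym at days 0, 1, 3 and 5, with 2 libraries in each group; Topsym is a brand of fluocinonide, a potent topical glucocorticoid. All groups carry the name of SDS, day 0 included, so that no library of untreated skin at days 3 or 5 stands beside them.

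The labels give the topical treatment as lasting 4 days, although the days run to 5, and they do not say when the last application fell. They name neither the strain nor the site of the skin, nor whether both libraries of a group stem from different mice. The p-values below therefore rest on the scatter between libraries alone, part or all of which may be technical. Day of sampling, animals and the depth of tissue taken cannot be told apart in this design. Markers of all layers that whole skin should hold were present at both days: the keratinocyte gene Krt14, the fibroblast gene Col1a1, the endothelial gene Pecam1, the fat cell gene Adipoq and the muscle gene Myh4 were all above 0 in all 4 libraries. In such bulk tissue, fewer cells of a type and less RNA per cell cannot be told apart.

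SDS dissolves the lipids of the horny layer and opens the skin barrier. Irritated keratinocytes release cytokines and chemokines that draw in neutrophils and then monocytes, and they change to a repair state with the stress keratins 6, 16 and 17, faster division and a thicker epidermis. Keratinocytes that leave the basal layer exchange keratins 5 and 14 for keratins 1 and 10 and then cornify: involucrin, loricrin, small proline-rich and late cornified envelope proteins are cross-linked by transglutaminases into the cornified envelope, while ceramides, fatty acids and cholesterol fill the space between the cells. Kallikreins then cut the desmosomes so that the outermost cells are shed.

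The values are normalised reads, that is reads per gene divided by a factor for each library, and the unit of every level below is the normalised read. Reads recovered from them came to 18113954 and 18365039 in the day 5 libraries and to 26102598 and 22220880 in the day 3 libraries; they ranged between 15199656 and 32066246 over the libraries in which they could be recovered. The day 5 libraries had 20636 and 20774 genes above 0, against 23540 and 23218 at day 3. Their 10 most abundant genes held 10.3 and 10.8% of the reads, against 4.91 and 5.02% at day 3. Because the day 5 libraries were both shallower and more concentrated in a few genes, floors and counting intervals are given for genes near 0; they cover counting error only. Even numbers made up 76.8 and 76.3% of the counts of 1 to 20 reads at day 5 and 71.9% in each library at day 3, so reads may not be separate fragments and such intervals may be too narrow.

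Of the 19189 genes with at least 10 normalised reads in at least 2 of the 16 libraries, 12174 differed between day 5 and day 3 at an adjusted p under 0.05 (limma on log2 of the normalised reads plus 1, Benjamini-Hochberg adjustment). Such genes are said below to have been called, to have risen or to have fallen at day 5. Called higher were 5551 genes, or 28.9% of those tested, and called lower were 6623, or 34.5%. With a change of at least 2-fold as well, 2205 genes (11.5%) were higher and 4354 (22.7%) lower, and at 16-fold or more 72 were higher and 300 lower. The counts of calls in the lists below can be set against the shares of 28.9% and 34.5%, and a mixed list near these shares is no result about its members. The median log2 change over all genes tested was -0.07, against which the list medians below can be set. With each library scaled to its total instead, that median was -0.32, with 3862 genes higher and 8330 lower, and the higher genes made up 31.7% of the calls in place of 45.6%. The values of the day 5 libraries did not overlap those of the day 3 libraries for 15183 genes (79.1%), a share that the small groups themselves favour. The median coefficient of variation between the 2 libraries was 5.30% at day 5 and 3.96% at day 3 over the 10825 genes with a mean of at least 100 at both days.

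**Figure D1:**
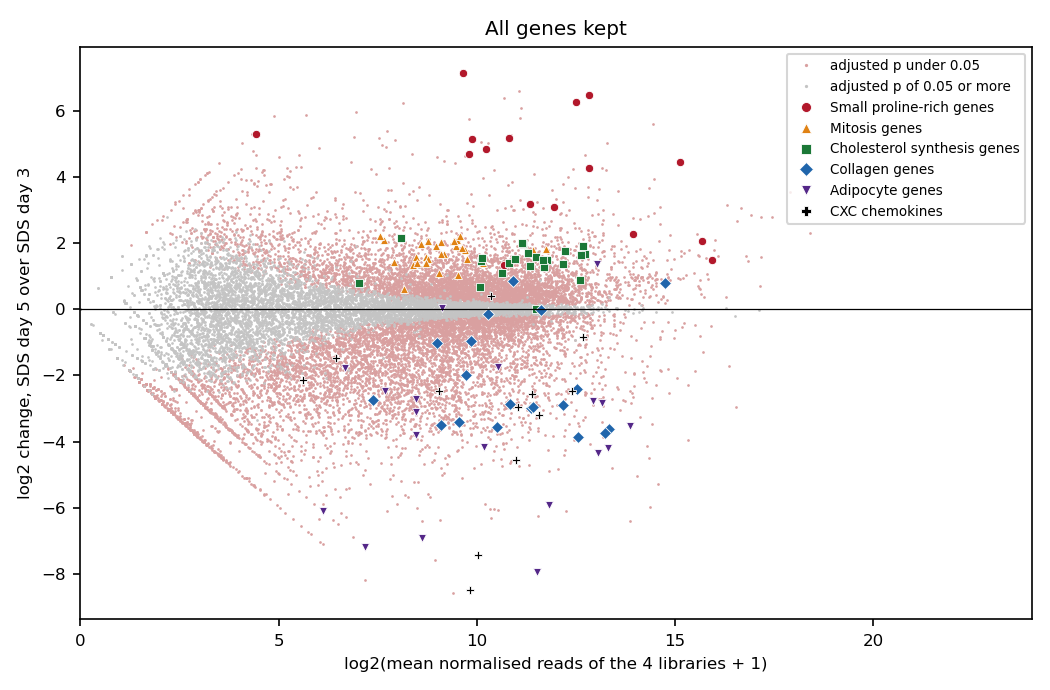
Every gene tested is drawn by its mean level over the 4 libraries (x axis, log2 of normalised reads plus 1) and its log2 change, SDS day 5 over SDS day 3 (y axis); coloured symbols mark members of 6 gene lists. The small proline-rich, mitosis and most cholesterol synthesis genes lie above 0, and most collagen, adipocyte and CXC chemokine genes lie below it.

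The largest rises belonged to genes of the outer epidermis. Sprr2k (chr3:92432582-92433925, GRCm38), which encodes a small proline-rich protein of the cornified envelope, had 1629 and 1545 normalised reads at day 5, against 10.8 and 9.72 at day 3 (log2 7.14, SE 0.48, adjusted p = 9.84e-10 by limma). The libraries of the 2 days did not overlap, which the choice of the leading genes required. Sprr2b, of the same cluster, had 14624 and 14173 at day 5, against 161 and 157 at day 3 (log2 6.49, SE 0.75). Sprr2i had 11345 and 11373 at day 5, against 134 and 159 at day 3 (log2 6.27, SE 0.205). Rptn (chr3:93393699-93399442), which encodes repetin, a filaggrin-like protein of the granular layer, had 43054 and 44029 at day 5, against 882 and 917 at day 3 (log2 5.596, SE 0.07, adjusted p = 6.1e-18). Lce3b, a late cornified envelope gene, had 3605 and 3641 at day 5, against 94.1 and 93.3 at day 3 (log2 5.26, SE 0.34). Serpinb3a and Serpinb12 encode intracellular protease inhibitors of the clade B serpins; Serpinb3a had 4301 and 4409 at day 5, against 54.9 and 71.9 at day 3. Serpinb12 had 4176 and 4370.5 at day 5, against 65.8 and 89.4 at day 3.

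Not all leading rises were of cornified envelope genes. Uox, which encodes urate oxidase, an enzyme best known from liver that breaks down uric acid, had 3288 and 3258 at day 5, against 33.3 and 44.7 at day 3 (log2 6.37, SE 0.65, adjusted p = 2.3e-07). Rnase2b, a ribonuclease of the eosinophil-associated family, had 4388 and 4096 at day 5, against 38.3 and 47.6 at day 3 (log2 6.6000, SE 0.37), and its mean over days 0, 1, 3 and 5 was 371, 61.7, 42.96 and 4242, so the day 3 level was also below that of day 0. Alox8 encodes the mouse 8-lipoxygenase of skin and had 1779.8 and 1729 at day 5, against 24.97 and 39.9 at day 3 (log2 5.75, SE 0.51). Akr1d1, a steroid 5-beta-reductase, had 249 and 239 at day 5, against 4.16 and 1.94 at day 3. Spink12, a Kazal-type serine protease inhibitor, had 660.1 and 455 at day 5, against 6.66 and 5.83 at day 3. Wfdc12, a small whey acidic protein family member, had 239 and 227 at day 5, against 4.16 and 6.804 at day 3. Cstdc6, a cystatin-domain gene, had 393 and 322 at day 5, against 19.1 and 3.89 at day 3, and its day 3 libraries lay far apart. Sprr2a1 had 5341 and 1684 at day 5, against 94.1 and 71.9 at day 3; its day 5 libraries differed by more than 3-fold, and as Sprr2a1, Sprr2a2 and Sprr2a3 are near copies, the way reads were shared among them is uncertain.

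The largest falls were of inflammatory and fat genes. Cxcl5 (chr5:90759360-90761624), a neutrophil-attracting chemokine, had 5.69 and 2.83 at day 5, against 1895 and 1720.4 at day 3 (log2 -8.48, SE 0.66, adjusted p = 7.59e-09), and it was at 0 in all libraries of SDS alone at days 0 and 1. Ptx3, the long pentraxin of local acute phase responses, had 0 and 11.3 at day 5, against 1400.2 and 1285 at day 3 (log2 -8.58, SE 0.75). Ppbp, the platelet basic protein, another CXC chemokine, had 8.54 and 14.2 at day 5, against 2101 and 2046 at day 3 (log2 -7.43, SE 0.59). Ly6g, a neutrophil surface protein, had no read at day 5, against 122 and 151 at day 3, which made it at least 63.9-fold lower (floor of 3 reads over the 2 libraries); its adjusted p was 1.61e-07 by limma and 0.151 by DESeq2. Mrgpra2b, a receptor of neutrophils, had no read at day 5, against 131 and 127 at day 3, or at least 60.6-fold lower. Prok2, a secreted prokineticin that neutrophils make, had no read at day 5, against 106 and 105 at day 3, or at least 49.5-fold lower.

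Pck1 (chr2:173153048-173159273), the cytosolic phosphoenolpyruvate carboxykinase that serves glyceroneogenesis in fat, had 15.6 and 32.6 at day 5, against 5898 and 5841 at day 3 (log2 -7.96, SE 0.22, adjusted p = 1.54e-14), and its means over days 0, 1, 3 and 5 were 268, 2464, 5869.7 and 24.1. Plin1, the coat protein of fat droplets, had 2.85 and 9.92 at day 5, against 773 and 782 at day 3 (log2 -6.91, SE 0.301). Trarg1, a fat cell protein of glucose transporter traffic, had 2.85 and 5.67 at day 5, against 999.8 and 939 at day 3 (log2 -7.58, SE 0.23). For Lep, which encodes the fat hormone leptin, the levels were 0 and 2.83 at day 5, against 247 and 327 at day 3, a ratio of 0.00494 (95% counting interval 0.000605 to 0.0181). Klb, the co-receptor of fibroblast growth factor 21, had 2.85 and 0 at day 5, against 226 and 235 at day 3, a ratio of 0.00616 (95% counting interval 0.000744 to 0.0224). Fgf23, a phosphate-regulating hormone best known from bone, had no read at day 5, against 286 and 288 at day 3, and was thus at least 135-fold lower. The last of the leading falls were of enzymes and a transporter. Vnn1, a pantetheinase, had 11.4 and 5.67 at day 5, against 772 and 769 at day 3. Slc22a3, an organic cation transporter, had 0 and 2.83 at day 5, against 179.8 and 172 at day 3, a ratio of 0.00806 (95% counting interval 0.000972 to 0.0293). Ggt1, a gamma-glutamyltransferase, had no read at day 5, against 127 and 96.2 at day 3, which is a fall of at least 52.3-fold, with an adjusted p of 7.43e-07 by limma and 0.147 by DESeq2. In all, 176 of the 16895 genes with a day 3 mean of at least 10 had no read at day 5. Of the 16231 genes with a day 5 mean of at least 10, 22 had none at day 3, in libraries of unequal depth.

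**Figure D2:**
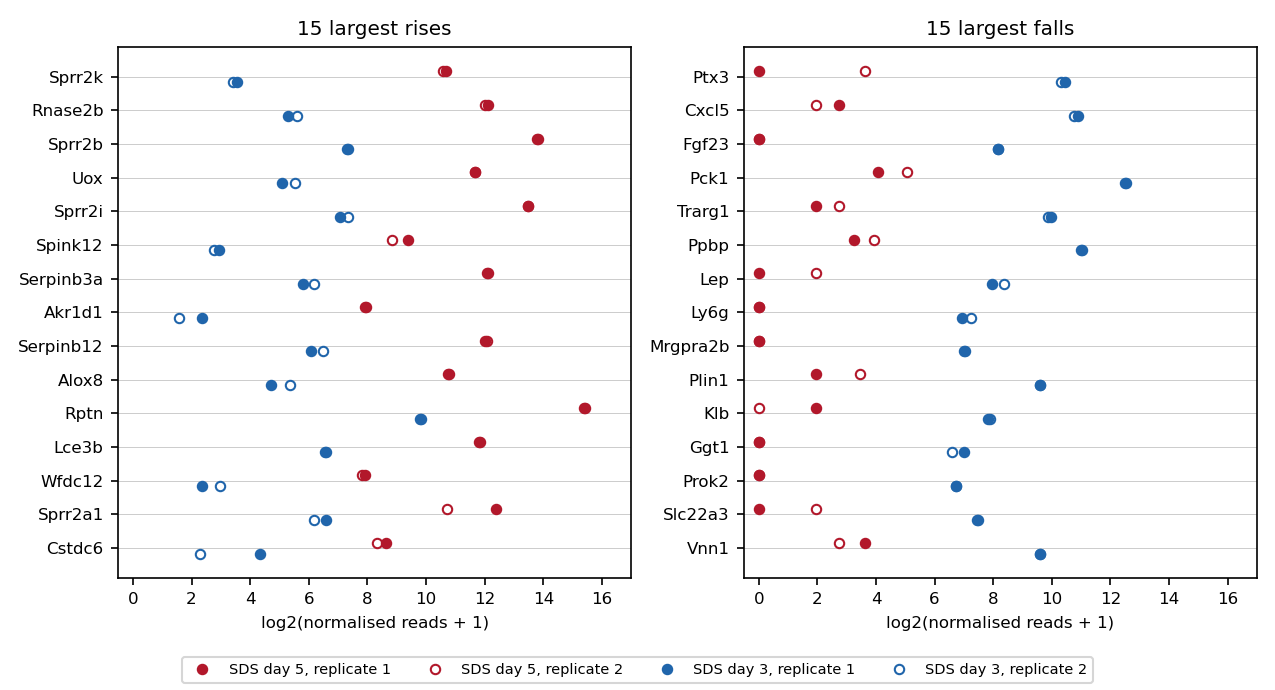
Levels of the 15 leading rises and the 15 leading falls in each library (log2 of normalised reads plus 1), day 5 beside day 3; filled and open points are replicates 1 and 2. The days do not overlap for any of the 30 genes, which the choice of genes required, and the replicates lie close together except for low values and genes such as Sprr2a1 and Cstdc6.

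Among the keratins, the stress keratins rose at day 5 (4 higher and 0 lower of 4 tested, median log2 change 2.28). Krt6b had 147376 and 145418 at day 5, against 17099 and 15736 at day 3 (log2 3.16, SE 0.105, adjusted p = 1.12e-13). Krt16 had 249657 and 262164 at day 5, against 38060.5 and 36708 at day 3 (log2 2.77, SE 0.07). Krt6a had 94864 and 104081 at day 5, against 29864 and 27945 at day 3 (log2 1.78, SE 0.07). Krt17 had 63753 and 67872 at day 5, against 36517 and 34450.1 at day 3 (log2 0.89, SE 0.05). Krt6a and Krt6b are near copies. The 4 genes together took 2.16 and 2.23% of the reads at day 5, against 0.559 and 0.532% at day 3.

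The keratins of normal epidermal layers rose as well (8 higher and 0 lower of 9, median 1.99). Krt1, the type II keratin of the spinous layer, had 431351 and 466621 at day 5, against 38574 and 38440.01 at day 3 (log2 3.54, SE 0.05, adjusted p = 1.4e-17), and its partner Krt10 had 301610.3 and 318695 at day 5, against 47143 and 42945 at day 3 (log2 2.78, SE 0.05). The basal pair had smaller log2 changes: Krt14 had 564512 and 593095 at day 5, against 118436 and 118022 at day 3 (log2 2.29, SE 0.05). Krt5 had 207902 and 228450.5 at day 5, against 74604 and 72045 at day 3 (log2 1.57, SE 0.05). Krt15, a keratin of basal cells and of the follicle bulge, had 17562 and 18708 at day 5, against 18748 and 17931 at day 3 and was not called (log2 -0.02, SE 0.04, adjusted p = 0.768), but Krt15 was called lower with total scaling (log2 -0.27). Krt2, a late keratin of mouse tail, ear and sole epidermis, was close to its detection limit, with 38.4 and 22.7 at day 5, against 1.66 and 0 at day 3, a ratio of 36.7 (95% counting interval 8.87 to 290). The 9 keratins took 6.31 and 6.65% of the reads at day 5, against 1.64 and 1.605% at day 3. Krt10 had means of 187066, 134864, 45044 and 310152 at days 0, 1, 3 and 5, so its day 3 level was also below day 0.

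Small proline-rich genes lie side by side on chromosome 3 and encode bridges of the cornified envelope. All 16 tested rose, with a median log2 change of 4.58, and took 1.305 and 1.28% of the reads at day 5, against 0.295 and 0.308% at day 3. Sprr2d, the most abundant Sprr2 gene here by reads, had 69445 and 67490.4 at day 5, against 3009 and 3222 at day 3 (log2 4.46, SE 0.11). Sprr3 had 56.9 and 25.5 at day 5, against no read at day 3, which is a rise of at least 30.5-fold. The smallest changes were those of Sprr1a, with 91878 and 91942 at day 5, against 31941 and 34269 at day 3 (log2 1.47, SE 0.06), and of Sprr4 (log2 1.35, SE 0.07), which were chosen as the other end of the range. Since these neighbours rose together, their promoters are shown. RefSeq (GRCm38.p6) gave a promoter of 300 bases, 250 before to 50 after the start, for 14 of the genes. The AP-1 element TGANTCA, the site of Fos and Jun proteins, read on both strands, was found in 9 of these 14 promoters (64.3%), with a median distance of its first base to the start of -193, against 7.81% of all 32851 promoters. In Sprr2b, Sprr2d, Sprr2e, Sprr2f, Sprr2h, Sprr2i and Sprr2k a match lay between -198 and -193, and the Sprr2 stretches printed below are alike in sequence. The 9 promoters are therefore not independent of each other, and their share cannot be read as an enrichment over all promoters. The letters are a description of the windows and not a test of any factor. The 4 stretches were chosen among the promoters that hold the element, while those of Sprr3, Sprr2a1, Sprr2a2, Sprr2a3 and Sprr4 hold no match. They run from -210 to -91 before the start, on the plus strand: Sprr2k at chr3:92432372-92432491, Sprr2b at chr3:92316495-92316614, Sprr2i at chr3:92407781-92407900 and Sprr2d at chr3:92338930-92339049. Capitals mark the element.
Sprr2k: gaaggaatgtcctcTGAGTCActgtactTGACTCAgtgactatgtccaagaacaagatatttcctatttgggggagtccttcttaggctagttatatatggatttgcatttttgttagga
Sprr2b: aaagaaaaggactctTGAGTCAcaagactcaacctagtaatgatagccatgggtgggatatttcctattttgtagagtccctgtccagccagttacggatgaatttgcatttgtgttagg
Sprr2i: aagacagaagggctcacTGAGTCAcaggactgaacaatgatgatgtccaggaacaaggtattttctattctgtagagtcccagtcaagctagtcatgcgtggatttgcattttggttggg
Sprr2d: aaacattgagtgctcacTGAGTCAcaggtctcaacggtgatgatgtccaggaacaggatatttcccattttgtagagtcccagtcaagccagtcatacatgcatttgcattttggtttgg

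The late cornified envelope genes of the same region rose together too. All 6 Lce3 genes, a group known for its induction after barrier injury, rose (median log2 change 3.91). Lce3a had 1569 and 1641 at day 5, against 68.3 and 59.3 at day 3. Lce3f had 2084 and 2224 at day 5, against 137 and 137 at day 3. All 14 Lce1 genes, which belong to ordinary cornification, rose as well (median 2.89). Lce1g had 9925 and 10976 at day 5, against 557 and 537 at day 3 (log2 4.25, SE 0.09). Lce1f had 10515 and 10507 at day 5, against 854 and 807 at day 3 (log2 3.66, SE 0.06). Members of both groups are alike in sequence, so the split of reads among them is uncertain. Over the whole epidermal differentiation complex (chr3:90511034-93526287, from S100a1 to S100a11), 67 of the 76 genes tested were higher and 3 lower, with a median log2 change of 2.61.

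Cornification genes outside these families rose in 24 higher and 0 lower of 24 tested (median 1.903). Flg, the gene of filaggrin, whose fragments hold water in the horny layer, had 43105 and 42473 at day 5, against 2846 and 2689 at day 3 (log2 3.95, SE 0.05, adjusted p = 6.13e-18). Tgm3, a transglutaminase that cross-links envelope proteins, had 9872 and 9219 at day 5, against 626 and 559.8 at day 3 (log2 4.01, SE 0.07). Casp14, the protease that helps cut filaggrin, had 38493 and 38119.9 at day 5, against 2864 and 3206 at day 3 (log2 3.66, SE 0.07). Loricrin and involucrin genes had smaller log2 changes: Lor had 166277 and 175133 at day 5, against 66576 and 58584 at day 3 (log2 1.45, SE 0.11). Ivl had 14864 and 15275 at day 5, against 6167 and 6338 at day 3 (log2 1.27, SE 0.05). Crnn, which encodes cornulin, was low, with 82.5 and 79.4 at day 5, against 4.99 and 1.94 at day 3. The 24 genes together took 3.69 and 3.74% of the reads at day 5, against 1.43 and 1.38% at day 3.

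Proteases of shedding and their inhibitors rose on the same day. Of the kallikrein list, 13 higher and 0 lower of 13 were called (median 2.49). Klk14 had 407 and 340.1 at day 5, against 6.66 and 17.5 at day 3 (log2 4.97, SE 0.6005, adjusted p = 1.77e-06). Klk13 had 17144 and 17459 at day 5, against 865 and 909.8 at day 3 (log2 4.28, SE 0.16). Among the inhibitors, Spink7 had 93.9 and 77.9 at day 5, against 4.99 and 0.972 at day 3. Spink5, the gene of LEKTI, chosen here for its known role after its values were seen, had 28514 and 28726 at day 5, against 9079 and 9550.5 at day 3 (log2 1.62, SE 0.06). The clade B serpins were 14 higher and 0 lower of 15, with a median of 2.06. Serpinb3b had 2663 and 2571 at day 5, against 124 and 162 at day 3. The serpin cluster on chr1:106861173-107610484 had 13 of 13 tested genes higher. The stefin A cluster on chr16:36276951-36455392, whose genes encode cysteine protease inhibitors, had 8 of 8 higher (median 3.72).

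Genes of the horny layer lipids and of cell junctions were mostly higher. Barrier lipid genes were 22 higher and 0 lower of 22 (median 1.39). Degs2, which makes phytoceramides, had 2819.8 and 3132 at day 5, against 370.4 and 344 at day 3 (log2 3.05, SE 0.27). Acer1, the alkaline ceramidase of the upper epidermis, had 3010.4 and 3289 at day 5, against 629 and 658 at day 3 (log2 2.29, SE 0.08). Cers3, the synthase of ceramides with very long chains, had 5733 and 5549.6 at day 5, against 1463 and 1407 at day 3 (log2 1.97, SE 0.05). Desmosome genes were 11 higher and 1 lower of 12 (median 1.68). Dsc2, a desmosomal cadherin, had 1723 and 1419 at day 5, against 216 and 213 at day 3 (log2 2.86, SE 0.195). Perp, a desmosome-associated membrane protein, had 107017 and 104848 at day 5, against 25231 and 24603 at day 3 (log2 2.09, SE 0.04). Pkp2, a plakophilin better known from heart and simple epithelia, fell, with 14.2 and 28.3 at day 5, against 157 and 112 at day 3. Genes that anchor the basal cells were divided (7 higher and 4 lower of 12, median 0.54): the laminin 332 chain Lama3 had 3110.03 and 2983 at day 5, against 1089.7 and 1176 at day 3 (log2 1.43, SE 0.07). Itga6, an integrin subunit of the hemidesmosome, had 9600.4 and 9318 at day 5, against 4211 and 4162 at day 3 (log2 1.18, SE 0.05). Ligands and receptors of the EGF family were 5 higher and 4 lower of 11, beside 28.9% higher and 34.5% lower of all genes tested. The receptor Erbb3 had 5466 and 5788 at day 5, against 2512 and 2584 at day 3 (log2 1.14, SE 0.05), and the ligand Epgn had 377 and 327 at day 5, against 799.99 and 727 at day 3 (log2 -1.12, SE 0.096).

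**Figure D3:**
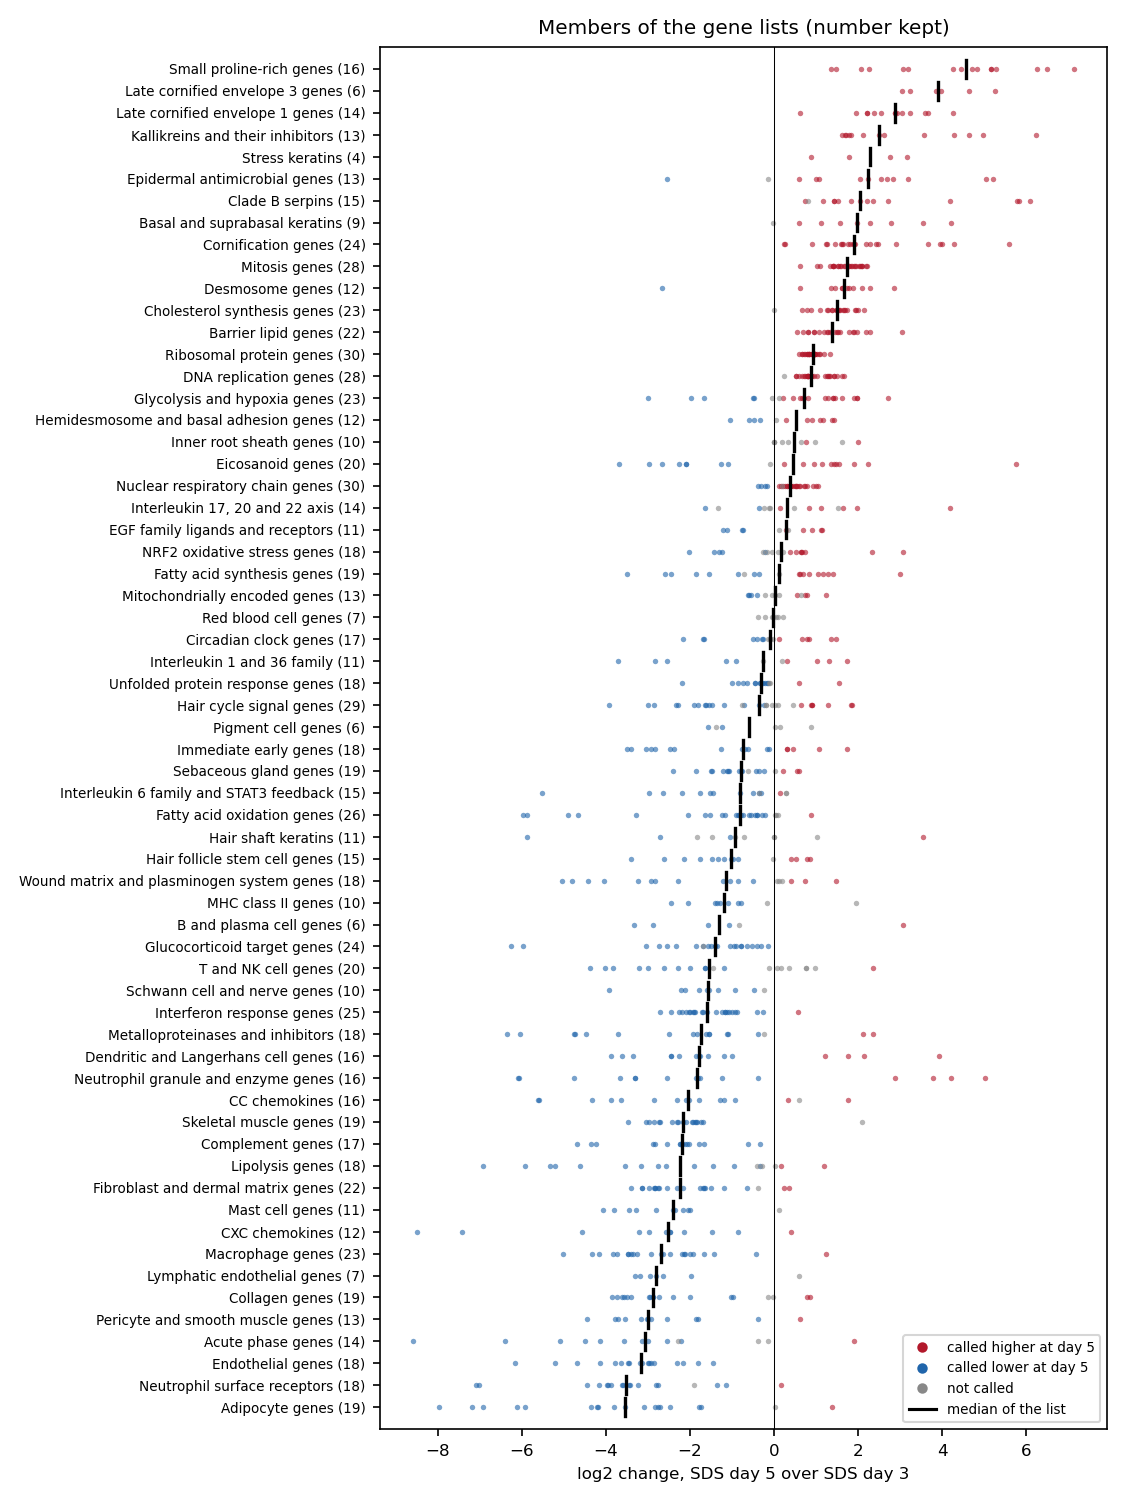
Each point is the log2 change, SDS day 5 over SDS day 3, of a gene tested, by gene list, with the median as a bar; red points were called higher, blue points called lower and grey points not called. Lists of cornification lie at the upper right, with medians up to 4.58 for the small proline-rich genes, and adipocyte, neutrophil receptor and endothelial genes at the lower left, with medians down to -3.54.

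Antimicrobial genes of the epidermis rose for the most part (11 higher and 1 lower of 13, median 2.25). S100a9, a subunit of calprotectin made by both neutrophils and stressed keratinocytes, had 210534 and 220928 at day 5, against 30141 and 29855 at day 3 (log2 2.85, SE 0.11, adjusted p = 6.32e-13), and its partner S100a8 had 49453 and 48624 at day 5, against 10648 and 10027 at day 3 (log2 2.25, SE 0.16). Both were higher at day 5 while the neutrophil surface receptors, described below, were lower. Defb3, a beta-defensin, had 2138 and 2113 at day 5, against 54.1 and 73.9 at day 3 (log2 5.05, SE 0.65). Defb4 had 942 and 976 at day 5, against 102 and 107 at day 3 (log2 3.19, SE 0.65). Lcn2, the gene of lipocalin 2, which withholds iron from bacteria, fell, with 4595 and 4542 at day 5, against 26430.3 and 26344 at day 3 (log2 -2.53, SE 0.08).

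Genes of cell division rose. Mitosis genes were 28 higher and 0 lower of 28 tested, with a median log2 change of 1.74, and DNA replication genes were 27 higher and 0 lower of 28, with a median of 0.88. Mki67, the gene of the Ki-67 protein of dividing cells, had 5126 and 5474 at day 5, against 1467 and 1522 at day 3 (log2 1.83, SE 0.06, adjusted p = 2.06e-13). Its means at days 0, 1, 3 and 5 were 2688, 1536, 1494 and 5300.2, so the day 5 level was also above that of day 0. Birc5, the gene of survivin of the chromosomal passenger complex, had 1265 and 1253 at day 5, against 262 and 274 at day 3 (log2 2.23, SE 0.12). Bub1, a spindle checkpoint kinase, had 324 and 295 at day 5, against 66.6 and 66.1 at day 3 (log2 2.204, SE 0.23). Ube2c, the ubiquitin-conjugating enzyme of mitotic exit, had 1245 and 1105 at day 5, against 253 and 292 at day 3 (log2 2.106, SE 0.098). Ndc80, a kinetochore protein, had 283 and 373 at day 5, against 68.3 and 83.6 at day 3 (log2 2.09, SE 0.17). Of the replication genes, Ccne1, the cyclin of entry to S phase, had 413 and 407 at day 5, against 139.9 and 118 at day 3. Tk1, a thymidine kinase, had 948 and 1083 at day 5, against 345 and 312 at day 3. Mcm5, a subunit of the replicative helicase, had 2127 and 2287 at day 5, against 772 and 852 at day 3 (log2 1.44, SE 0.097).

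Promoters of the mitosis genes are known for a pair of elements, the cell cycle homology region TTTGAA near the start and CCAAT boxes before it. In the RefSeq promoters of 24 of the 28 mitosis genes, read on both strands, TTTGAA was found in 18 (75%), with a median distance of 2 from the start, and CCAAT in 18 (75%), with a median of -74.5. Both were found in 15 (62.5%), 1 of which had matches that overlapped, against 6.95% of all promoters with both. Alone, TTTGAA was in 17.9% and CCAAT in 37.4% of all promoters. The 25 promoters of DNA replication genes held TTTGAA in 2 (8%) and CCAAT in 16 (64%). Of the genes with the largest rises, Birc5 had no match to either in its promoter, Bub1 none to TTTGAA and Ndc80 none to CCAAT. The promoters of Ccnb2, Cdca8 and Mki67 hold both elements, and these genes rose more than Top2a and Cdk1, but they lack the pair between -120 and -1. The 4 stretches were chosen because they hold both elements between these positions, which leaves out matches after the start. They run from -120 to -1, with the 2 elements in capitals, in either direction: Ube2c at chr2:164769809-164769928 and Kif11, a spindle motor, at chr19:37376262-37376381, both on the plus strand, and Top2a, the topoisomerase of mitotic chromosomes, at chr11:99024190-99024309 and Cdk1, the mitotic kinase, at chr10:69352913-69353032, both on the minus strand. Their levels all rose at day 5: Kif11 had 1014 and 1180.5 at day 5, against 245 and 277 at day 3. Top2a had 4053 and 4379 at day 5, against 1199.6 and 1219.8 at day 3. Cdk1 had 1243 and 1345 at day 5, against 367 and 376 at day 3.
Ube2c: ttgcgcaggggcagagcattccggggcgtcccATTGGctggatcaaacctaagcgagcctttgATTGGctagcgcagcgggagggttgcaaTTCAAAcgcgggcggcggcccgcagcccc
Kif11: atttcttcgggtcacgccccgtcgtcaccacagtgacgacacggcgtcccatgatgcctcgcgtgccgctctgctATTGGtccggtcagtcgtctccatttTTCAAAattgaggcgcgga
Top2a: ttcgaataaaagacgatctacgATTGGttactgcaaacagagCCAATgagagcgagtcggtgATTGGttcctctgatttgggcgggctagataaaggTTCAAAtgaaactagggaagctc
Cdk1: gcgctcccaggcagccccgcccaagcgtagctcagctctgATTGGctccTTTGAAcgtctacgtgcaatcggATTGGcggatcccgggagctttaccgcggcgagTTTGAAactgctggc

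Genes of the synthesis of cholesterol, a barrier lipid that keratinocytes make for themselves, rose (22 higher and 0 lower of 23, median 1.503). Hmgcs1, the synthase that feeds HMG-CoA into the pathway, had 9763 and 9219 at day 5, against 3038 and 3061 at day 3 (log2 1.64, SE 0.07, adjusted p = 1.81e-12). Tm7sf2, a sterol reductase, had 451 and 432 at day 5, against 102 and 97.2 at day 3 (log2 2.14, SE 0.15). Acat2, a thiolase of the first step, had 3554 and 3690.3 at day 5, against 925 and 886 at day 3 (log2 1.999, SE 0.08). Mvk, the mevalonate kinase, had 3631 and 3632 at day 5, against 981 and 890.3 at day 3 (log2 1.96, SE 0.07). Cyp51, the lanosterol demethylase, had 10778 and 9937 at day 5, against 2701 and 2766 at day 3 (log2 1.92, SE 0.06). Of the 20 promoters that RefSeq gave for 17 of these genes, CCAAT was in 16 (80%), with a median distance of -57.5, and the sterol element TCACNCCAC in 1 (5%), against 1.24% of all promoters. Only these exact letters were counted, with any base at N, so sites that differ from them were missed. The low count therefore does not show that sterol elements are absent. The stretches of 3 of the leading genes were chosen for their CCAAT boxes, of which the window of Acat2 holds none, and run from -120 to -1: Tm7sf2 at chr19:6067851-6067970 on the minus strand, Mvk at chr5:114444149-114444268 on the plus strand and Cyp51 at chr5:4104698-4104817 on the minus strand, with CCAAT boxes of either direction in capitals.
Tm7sf2: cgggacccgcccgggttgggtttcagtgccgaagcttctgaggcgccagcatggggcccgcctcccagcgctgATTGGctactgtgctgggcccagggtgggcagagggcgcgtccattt
Mvk: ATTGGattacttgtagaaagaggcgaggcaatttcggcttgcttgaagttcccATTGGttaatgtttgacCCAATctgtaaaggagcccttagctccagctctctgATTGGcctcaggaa
Cyp51: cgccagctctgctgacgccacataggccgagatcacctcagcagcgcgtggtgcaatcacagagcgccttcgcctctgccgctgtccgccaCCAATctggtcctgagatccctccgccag

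Other lipid genes moved apart. Among fatty acid synthesis genes (9 higher and 8 lower of 19, median 0.12, but -0.13 with total scaling), Scd2, a stearoyl-CoA desaturase, had 16461 and 16405 at day 5, against 1989.6 and 2097 at day 3 (log2 3.01, SE 0.05). Scd1, the desaturase of sebaceous glands and fat, had 11077 and 10881 at day 5, against 38508 and 40128 at day 3 (log2 -1.84, SE 0.04). Mlxipl, the gene of the glucose-sensing factor ChREBP, had 75.4 and 87.9 at day 5, against 481 and 504 at day 3 (log2 -2.58, SE 0.12). Fatty acid oxidation genes fell (1 higher and 22 lower of 26, median -0.798). Pdk4, a kinase that turns off the use of pyruvate when fat is burnt, had 616 and 714 at day 5, against 41192 and 42555 at day 3 (log2 -5.98, SE 0.11, adjusted p = 7.04e-17), with means of 638, 17195, 41874 and 665 at days 0, 1, 3 and 5. Ucp3, a mitochondrial carrier of muscle and brown fat, had 39.8 and 36.8 at day 5, against 2345 and 2281 at day 3 (log2 -5.88, SE 0.14). Lipolysis and fat droplet genes also fell (2 higher and 13 lower of 18, median -2.22): Pnpla2, the adipose triglyceride lipase, had 3109 and 3656 at day 5, against 22695 and 22772 at day 3 (log2 -2.75, SE 0.07). Cidec, a droplet fusion protein, had 129 and 103 at day 5, against 7081 and 7092 at day 3 (log2 -5.92, SE 0.09). G0s2, an inhibitor of that lipase, had 17.1 and 17.01 at day 5, against 681 and 653 at day 3 (log2 -5.21, SE 0.25). Several of these genes are also expressed in fat and muscle, whose markers, given below, fell on the same day; their part in these falls was not tested.

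Energy genes outside fat use were mostly higher. Glycolysis and hypoxia genes were 16 higher and 5 lower of 23 (median 0.71). Pfkl, a phosphofructokinase, had 6488 and 7006 at day 5, against 1773 and 1637 at day 3 (log2 1.98, SE 0.06). Ankrd37, a hypoxia target, had 69.7 and 89.3 at day 5, against 9.99 and 12.6 at day 3 (log2 2.71, SE 0.27). Slc2a3, a glucose transporter of blood cells and neurons, fell, with 56.9 and 42.5 at day 5, against 412 and 382 at day 3 (log2 -2.99, SE 0.24). Nuclear genes of the respiratory chain were 25 higher and 4 lower of 30 (median 0.39), and 13 higher and 5 lower with total scaling, so many of these small rises depended on the scaling. The 13 mitochondrially encoded genes had a median of 0.02, with 4 higher and 4 lower; it turned to -0.23 with total scaling. Ribosomal protein genes were 30 higher and 0 lower of 30 (median 0.93), under total scaling too. Rpsa had 61363 and 62652 at day 5, against 29732 and 28674 at day 3 (log2 1.09, SE 0.04).

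Most neutrophil genes were lower at day 5. The surface receptors were 1 higher and 16 lower of 18 tested (median -3.51). Besides Ly6g and Mrgpra2b, Fpr1, the receptor for formyl peptides of bacteria, had 65.4 and 45.3 at day 5, against 1256 and 1149 at day 3. Itgam, the alpha chain of the Mac-1 integrin, had 307 and 157 at day 5, against 3771 and 4071 at day 3 (log2 -4.15, SE 0.19). The member called higher was Hcar2, a receptor for butyrate and niacin, with 3084 and 2951 at day 5, against 2719.6 and 2608 at day 3 (log2 0.18, SE 0.07). This call of Hcar2 did not last: the log2 change was -0.08 with total scaling, and the adjusted p of limma was between 0.0566 and 0.186 without each of the 4 libraries in turn. Granule and enzyme genes were 4 higher and 12 lower of 16 (median -1.83, or -1.78 with genes without reads at their bound). Retnlg, a resistin-like protein of neutrophils, had 172 and 113 at day 5, against 9555 and 9618 at day 3 (log2 -6.09, SE 0.52, adjusted p = 2.67e-08). Ngp, the neutrophilic granule protein, had 54.1 and 34.01 at day 5, against 2912 and 2949.9 at day 3 (log2 -6.06, SE 0.79). Mmp8, the neutrophil collagenase, had 159 and 147 at day 5, against 4087 and 4190.1 at day 3 (log2 -4.75, SE 0.55). The 4 that rose were Chil1 and the stefin genes Stfa1, Stfa2 and Stfa3; Stfa3 had 19093 and 19799 at day 5, against 591 and 598 at day 3 (log2 5.03, SE 0.13). Chil1, a chitinase-like protein, had 19749 and 19482 at day 5, against 2699 and 2617 at day 3 (log2 2.88, SE 0.09). The stefin genes are near copies of each other.

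The signals that draw leukocytes fell as well. CXC chemokines were 1 higher and 11 lower of 12 (median -2.52). Pf4, the platelet factor 4, had 159 and 171 at day 5, against 3955 and 3871 at day 3 (log2 -4.56, SE 0.12). Cxcl3 had 635 and 554 at day 5, against 5457 and 5459 at day 3 (log2 -3.2001, SE 0.63). The member called higher was Cxcl16, with 1337 and 1623 at day 5, against 1129.6 and 1098 at day 3 (log2 0.403, SE 0.08), a call of Cxcl16 that was lost with total scaling (log2 0.15, adjusted p = 0.104 by limma). CC chemokines were 2 higher and 13 lower of 16 (median -2.05). The monocyte attractant Ccl2 had 31.3 and 8.503 at day 5, against 766 and 923 at day 3 (log2 -5.59, SE 0.37). Ccl7 had 24.2 and 4.25 at day 5, against 564 and 561 at day 3 (log2 -5.61, SE 0.73). Ccl22, which draws regulatory and type 2 T cells, and Ccl20, which attracts CCR6-bearing cells, were the 2 that rose: Ccl22 had 408 and 449 at day 5, against 122 and 126 at day 3 (log2 1.78, SE 0.12). Ccl20 had 741 and 818 at day 5, against 604 and 624 at day 3 (log2 0.34, SE 0.14). The call of Ccl20 was lost with total scaling (log2 0.08) and when replicate 1 or 2 of day 3 or replicate 2 of day 5 was left out, with adjusted p of limma between 0.093 and 0.182. The chemokine cluster on chr11:82035571-82305690 had 5 of 6 tested genes lower and none higher.

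Cytokine systems were divided by member. The interleukin 1 and 36 family was 4 higher and 5 lower of 11 (median -0.25), beside 28.9% higher and 34.5% lower of all genes tested. In it, Il1b, the inflammasome-processed cytokine, had 589 and 579.6 at day 5, against 4089.8 and 4279 at day 3 (log2 -2.84, SE 0.14, adjusted p = 1.97e-11 by limma). Il1rl1, the receptor for interleukin 33, had 108 and 85.03 at day 5, against 1219.5 and 1319 at day 3 (log2 -3.71, SE 0.15). Il18, a cytokine that keratinocytes store, had 1319 and 1376 at day 5, against 386 and 414 at day 3 (log2 1.75, SE 0.07), the opposite direction. In the interleukin 6 list (1 higher and 11 lower of 15, median -0.797), Il6 had 0 and 2.83 at day 5, against 91.6 and 84.6 at day 3, a ratio of 0.0161 (95% counting interval 0.00193 to 0.0588). Osm, the gene of oncostatin M, had 66.9 and 75.1 at day 5, against 468 and 422 at day 3 (log2 -2.63, SE 0.47). The interleukin 17, 20 and 22 list was 6 higher and 2 lower of 14 (median 0.31, but -0.04 when scaled as CPM); Il22ra1, the epithelial receptor chain for interleukin 22, had 989 and 1067 at day 5, against 268 and 254 at day 3 (log2 1.97, SE 0.14). Il17rc, a chain of the interleukin 17 receptor, had 5549.97 and 5915 at day 5, against 1856 and 1798 at day 3 (log2 1.65, SE 0.08). Il12b, the subunit p40 shared by interleukins 12 and 23, was low throughout, with 42.7 and 45.3 at day 5, against 4.99 and 0 at day 3.

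Acute phase genes fell in 1 higher and 10 lower of 14 tested (median -3.06). Saa3, the local serum amyloid A, had 1710.1 and 1794 at day 5, against 40902 and 38579.97 at day 3 (log2 -4.502, SE 0.303, adjusted p = 1.15e-09), and its means at days 0, 1, 3 and 5 were 20.9, 239, 39741 and 1752. Hp, the haptoglobin gene, had 388 and 309 at day 5, against 30270.4 and 28244 at day 3 (log2 -6.395, SE 0.098), and the antiprotease Serpina3m had 28.5 and 68.02 at day 5, against 1558 and 1509 at day 3 (log2 -5.09, SE 0.34). Orm1, an orosomucoid, was the member that rose, with 5979.6 and 6437 at day 5, against 1574 and 1715 at day 3 (log2 1.92, SE 0.06). Complement genes were 0 higher and 17 lower of 17 (median -2.19). C3ar1, the receptor for C3a, had 36.99 and 52.4 at day 5, against 1179 and 1139 at day 3 (log2 -4.69, SE 0.15). Cfd, the fat-derived factor D, had 837 and 749.7 at day 5, against 16796 and 15769 at day 3 (log2 -4.36, SE 0.06). Interferon response genes were 1 higher and 24 lower of 25 (median -1.599), with Zbp1, a sensor of left-handed nucleic acids, at 51.2 and 36.8 at day 5, against 287 and 295 at day 3 (log2 -2.71, SE 0.24). Eicosanoid genes were 11 higher and 8 lower of 20: Alox15, a lipoxygenase of macrophages and eosinophils, had 1.42 and 5.67 at day 5, against 29.97 and 31.1 at day 3 (log2 -2.97, SE 0.61). Alox5ap, the helper protein of leukotriene synthesis, had 105 and 86.4 at day 5, against 1298 and 1185 at day 3 (log2 -3.69, SE 0.205), while the epidermal lipoxygenases rose. Ptgs2, the inducible cyclooxygenase, had 168 and 156 at day 5, against 652 and 733 at day 3 (log2 -2.09, SE 0.19).

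**Figure D4:**
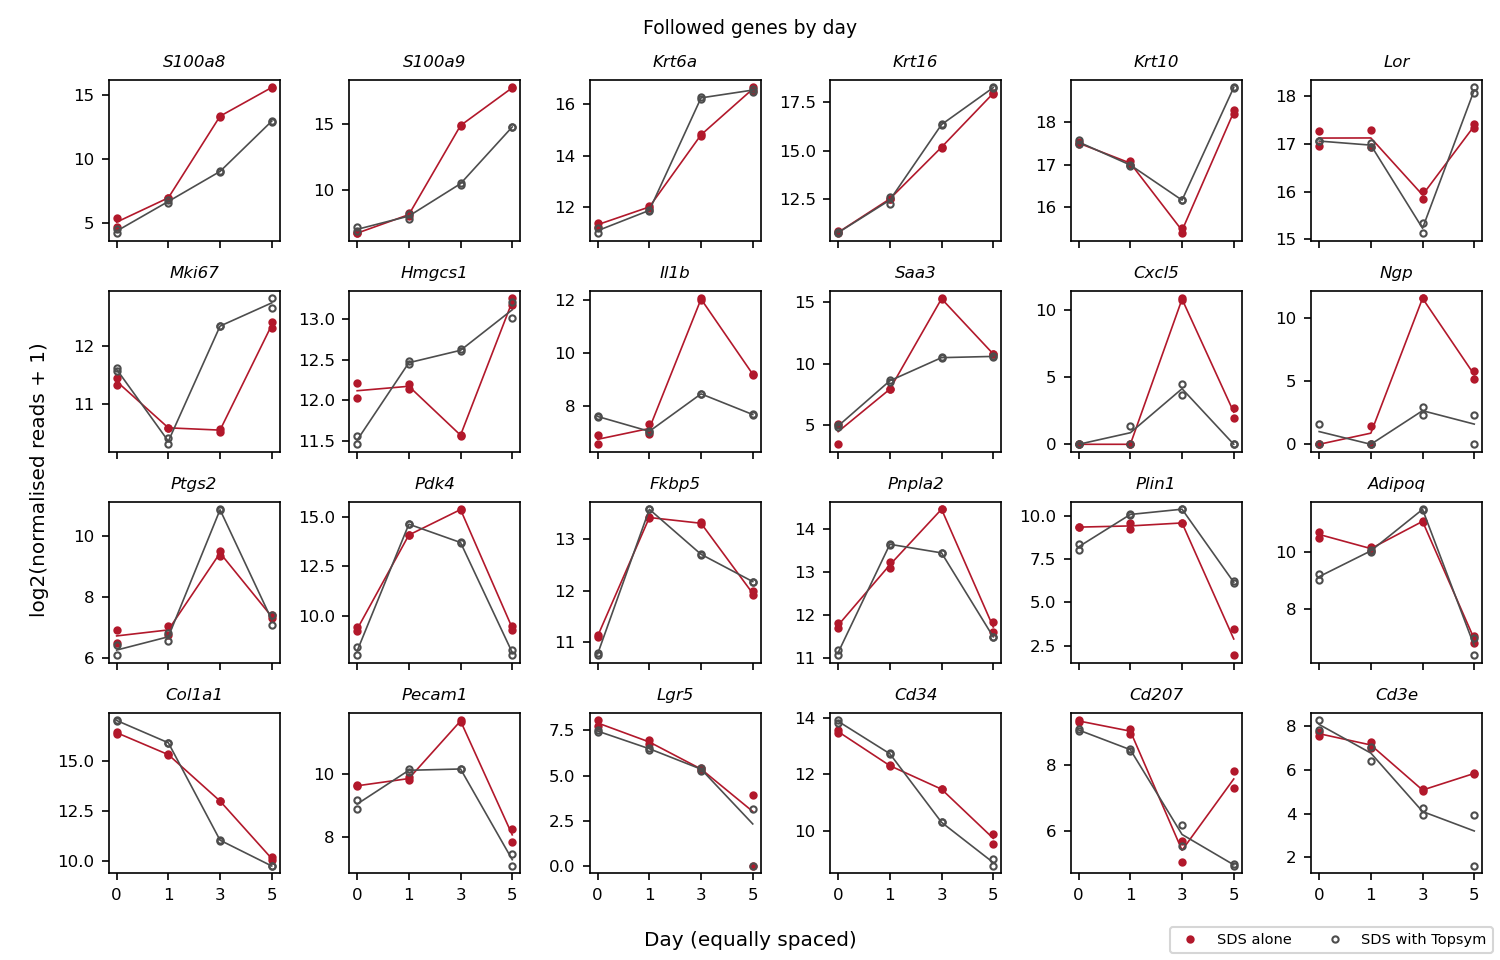
Levels of 24 genes at days 0, 1, 3 and 5 (x axis, equally spaced) as log2 of normalised reads plus 1 (y axis, a scale of its own in each panel), with each library as a point and lines through the group means of SDS alone (filled) and SDS with Topsym (open). S100a8, S100a9 and Krt16 were highest at day 5 in SDS alone, whereas Il1b, Saa3, Cxcl5, Ngp, Pdk4 and Pnpla2 were highest at day 3.

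Marker lists of leukocytes other than neutrophils were also lower. Macrophage genes were 1 higher and 22 lower of 23 (median -2.69, or -2.64 with the gene without reads at its bound), and their summed level was 20487 and 20399.9 at day 5, against 89614 and 88369 at day 3. Msr1, a scavenger receptor, had 71.1 and 96.4 at day 5, against 1467 and 1508 at day 3 (log2 -4.15, SE 0.16). Marco, another, had 2.85 and 1.42 at day 5, against 53.3 and 33.05 at day 3. Arg1, an arginase of alternatively activated macrophages that keratinocytes also make, was the member that rose, with 3298 and 3318 at day 5, against 1324 and 1476 at day 3 (log2 1.24, SE 0.08). Mast cell genes were 0 higher and 10 lower of 11 (median -2.39). Hdc, the enzyme that makes histamine, had 417 and 478 at day 5, against 6433 and 6114 at day 3 (log2 -3.81, SE 0.18). Dendritic and Langerhans cell genes were 4 higher and 12 lower of 16 (median -1.78, or -1.67 at the bound). Within them Cd207, the gene of langerin, the defining marker of Langerhans cells, rose, with 222 and 156 at day 5, against 33.3 and 51.5 at day 3 (log2 2.14, SE 0.23, adjusted p = 4.32e-07); its means at days 0, 1, 3 and 5 were 631, 510.2, 42.4 and 189, so day 5 was still the lower of days 0 and 5. T and NK cell genes were 1 higher and 11 lower of 20 (median -1.54), but Cd3e, a chain of the T cell receptor complex, had 56.9 and 55.3 at day 5, against 33.3 and 32.1 at day 3 and was not called (log2 0.76, SE 0.52, adjusted p = 0.212). MHC class II genes were 0 higher and 8 lower of 10 (median -1.19, or -1.10 at the bound); H2-Aa had 1307 and 1437 at day 5, against 3723 and 3478 at day 3 (log2 -1.39, SE 0.09). B and plasma cell genes were 1 higher and 4 lower of 6.

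Genes of the connective tissue beneath the epidermis were mostly lower. Collagen genes were 2 higher and 15 lower of 19 (median -2.88). Col1a1, the main collagen of the dermis, had 1044 and 1173 at day 5, against 8275 and 8094 at day 3 (log2 -2.89, SE 0.05, adjusted p = 9.86e-17), with means of 87780.2, 40949.99, 8185 and 1109 at days 0, 1, 3 and 5. Col3a1 had 1640.4 and 1497 at day 5, against 19519 and 18748 at day 3 (log2 -3.61, SE 0.05). Col4a2, a basement membrane collagen, had 792 and 749.7 at day 5, against 11332 and 10957 at day 3 (log2 -3.85, SE 0.05). The 2 that rose were the epidermal collagens Col7a1, of anchoring fibrils, and Col17a1, of hemidesmosomes: Col7a1 had 2491 and 2496 at day 5, against 1372 and 1370.5 at day 3 (log2 0.86, SE 0.04). Col17a1 had 34946 and 35057 at day 5, against 20476 and 20042 at day 3 (log2 0.79, SE 0.04). Fibroblast and dermal matrix genes were 2 higher and 19 lower of 22 (median -2.23). Loxl1, an elastin cross-linking enzyme, had 399.8 and 418 at day 5, against 4461 and 4236 at day 3 (log2 -3.41, SE 0.07). Eln, elastin itself, had 282 and 339 at day 5, against 2815 and 2620.4 at day 3 (log2 -3.13, SE 0.09).

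Matrix genes of early wounds were lower. The wound list was 3 higher and 12 lower of 18 (median -1.13). Tnc, the gene of tenascin C, had 755 and 761 at day 5, against 21228 and 21031 at day 3 (log2 -4.799, SE 0.15). Thbs1, thrombospondin 1, had 1076 and 935 at day 5, against 32466 and 33307 at day 3 (log2 -5.03, SE 0.09). Sdc1, an epithelial syndecan, was among the 3 that rose, with 27087 and 26886 at day 5, against 9759 and 9645 at day 3 (log2 1.48, SE 0.04). Of the metalloproteinases and inhibitors (2 higher and 15 lower of 18, median -1.72), Timp1, an inhibitor, had 38.4 and 36.8 at day 5, against 2679 and 2425 at day 3 (log2 -6.04, SE 0.29). Adamts4, an aggrecanase, had 9.96 and 14.2 at day 5, against 1072 and 1041 at day 3 (log2 -6.36, SE 0.31). The 2 that rose were Mmp13 and Mmp10. Mmp13, a collagenase, had 713 and 682 at day 5, against 159 and 158 at day 3 (log2 2.13, SE 0.35). Mmp10, a stromelysin, had 78.2 and 128 at day 5, against 19.1 and 18.5 at day 3 (log2 2.35, SE 0.55).

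Genes of vessels, fat, muscle and nerve were lower together with those of the dermis. All 18 endothelial genes fell (median -3.15), and their summed level was 2633 and 2511 at day 5, against 22991 and 22576 at day 3. Pecam1, the platelet-endothelial adhesion molecule, had 228 and 303 at day 5, against 3361 and 3222 at day 3 (log2 -3.64, SE 0.13, adjusted p = 3.9e-13); Sele, E-selectin, which catches leukocytes in inflamed vessels, had 5.69 and 0 at day 5, against 159 and 211 at day 3 (log2 -6.15, SE 0.62). Lymphatic genes were 0 higher and 6 lower of 7, and pericyte and smooth muscle genes 1 higher and 12 lower of 13. Adipocyte genes were 1 higher and 17 lower of 19 (median -3.54), with a summed level of 22456 and 22367 at day 5, against 118975 and 118206 at day 3. Adipoq, adiponectin, the defining product of fat cells, had 131 and 111 at day 5, against 2224 and 2166 at day 3 (log2 -4.18, SE 0.15). Tshr, the thyrotropin receptor, which fat cells also carry, had 0 and 2.83 at day 5, against 118 and 152 at day 3, a ratio of 0.0105 (95% counting interval 0.00128 to 0.0387). Cebpa, a factor that differentiating keratinocytes also use, was the member that rose, with 12018 and 12282 at day 5, against 4832 and 4546 at day 3 (log2 1.37, SE 0.06). Skeletal muscle genes were 0 higher and 18 lower of 19 (median -2.15), with a summed level of 116787 and 121818 at day 5, against 622428 and 619796 at day 3, or 0.453 and 0.468% of the reads at day 5, against 2.86 and 2.87% at day 3. Myh4, a fast myosin, had 20962 and 22323 at day 5, against 167890.4 and 169831 at day 3 (log2 -2.96, SE 0.06). Schwann cell and nerve genes were 0 higher and 9 lower of 10. No member of the endothelial, adipocyte or fibroblast lists was without reads at day 5.

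The marker genes of the deeper tissues were thus lower in the same 2 libraries as most inflammatory genes and most genes of fatty acid oxidation and lipolysis. The part of the deeper tissues in the other changes was not tested. The log2 changes of the 7 red blood cell genes tested lay between -0.37 and 0.21. Hba-a1, a haemoglobin alpha gene, had 3713 and 3821 at day 5, against 3699 and 3548 at day 3, and Hbb-bs, a beta gene, had 2909 and 3546 at day 5, against 3252 and 5284 at day 3. With total scaling, Hba-a1 (log2 -0.20) and Hbb-bs (log2 -0.63) were called lower.

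Genes of the hair follicle and sebaceous gland changed in both directions. Hair follicle stem cell genes were 4 higher and 10 lower of 15 (median -1.02). Cd34, a marker of mouse bulge stem cells that dermal cells also carry, had 950.4 and 748 at day 5, against 2831 and 2838 at day 3 (log2 -1.75, SE 0.09, adjusted p = 3.06e-11). Lgr5, a marker of cycling follicle stem cells, had 14.2 and 0 at day 5, against 41.6 and 38.9 at day 3; its adjusted p was 0.00532 and rose to 0.135 without replicate 2 of day 5, whose value was 0. Gli1, a hedgehog target, had 41.3 and 8.503 at day 5, against 129.9 and 115 at day 3 (log2 -2.62, SE 0.45). Hair cycle signals were 7 higher and 15 lower of 29 (median -0.34): Fgf7, a dermal growth factor for keratinocytes, had 25.6 and 34.01 at day 5, against 462 and 467 at day 3 (log2 -3.93, SE 0.31). Grem1, a BMP antagonist of the dermis, had 155 and 162 at day 5, against 1259 and 1261 at day 3 (log2 -2.98, SE 0.09), and the epidermal Wnt ligand Wnt4, chosen after its values were seen, had 6546 and 6797 at day 5, against 1949.6 and 1809 at day 3 (log2 1.83, SE 0.06). Of the hair shaft keratins, Krt84, a keratin of tongue, nail and hair, had 249 and 198 at day 5, against 19.98 and 16.5 at day 3 (log2 3.54, SE 0.38). Krt83 had 4.27 and 0 at day 5, against 134 and 134 at day 3, a ratio of 0.0159 (95% counting interval 0.00326 to 0.0469). Inner root sheath genes were mostly near 0, apart from Tchh and Gata3. Tchh, the gene of trichohyalin, had 590.4 and 569.7 at day 5, against 129.9 and 158 at day 3 (log2 2.01, SE 0.12). Gata3, a transcription factor of the inner root sheath and the epidermis, had 2616 and 2650.1 at day 5, against 1527 and 1547 at day 3 (log2 0.78, SE 0.05). Sebaceous gland genes were 3 higher and 14 lower of 19 (median -0.79). Plin2, a droplet protein, had 2976 and 2820.1 at day 5, against 15685 and 15126 at day 3 (log2 -2.41, SE 0.05).

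Most glucocorticoid target, immediate early and unfolded protein response genes were lower, while NRF2 targets and clock genes were divided. Glucocorticoid target genes were 0 higher and 23 lower of 24 (median -1.399), in mice of the arm without Topsym. Fkbp5, a co-chaperone of the glucocorticoid receptor, had 3833 and 4043 at day 5, against 10218 and 9915 at day 3 (log2 -1.35, SE 0.04, adjusted p = 4.68e-14), with means of 2226, 10873, 10066 and 3938 at days 0, 1, 3 and 5. Angptl4, a secreted inhibitor of lipoprotein lipase, had 99.6 and 58.1 at day 5, against 6193 and 5596 at day 3 (log2 -6.25, SE 0.23). Dusp1, a phosphatase that ends MAP kinase signals, had 1322 and 1192 at day 5, against 10301 and 10499 at day 3 (log2 -3.05, SE 0.06). Immediate early genes were 5 higher and 13 lower of 18 (median -0.72): Fosb had 28.5 and 31.2 at day 5, against 324 and 319 at day 3 (log2 -3.39, SE 0.11). Nr4a3 had 86.8 and 136 at day 5, against 1290.3 and 1163 at day 3 (log2 -3.48, SE 0.201), but Klf4, a factor of barrier formation, chosen after its values were seen, had 32786 and 32426 at day 5, against 9885 and 9709 at day 3 (log2 1.73, SE 0.04). NRF2 targets were 8 higher and 5 lower of 18 (median 0.16, but -0.09 with total scaling), beside 28.9% higher and 34.5% lower of all genes tested. The glutathione transferase Gsta4 had 12688 and 12917 at day 5, against 2576 and 2486 at day 3 (log2 2.34, SE 0.12). Hmox1, heme oxygenase 1, had 3089 and 3075 at day 5, against 12959.6 and 12175 at day 3 (log2 -2.03, SE 0.07). Unfolded protein response genes were 2 higher and 14 lower of 18. Trib3, 1 of the 2 that rose against the rest of that list, had 610.3 and 611 at day 5, against 189.8 and 225 at day 3 (log2 1.56, SE 0.14). Values of the members that fell are not reported here. Clock genes were 6 higher and 7 lower of 17, beside 28.9% higher and 34.5% lower of all genes tested. Among them, Ciart had 434 and 395 at day 5, against 149 and 145 at day 3. Per2 had 333 and 268 at day 5, against 984 and 953 at day 3. The hour of sampling is not given in the labels.

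The same step was also measured in the libraries of SDS with Topsym, which share no library with SDS alone. There 11943 genes (62.2%) were called between day 5 and day 3, 5207 higher and 6736 lower, with a median log2 change of -0.13. Called the same way in both arms were 8313 genes, or 68.3% of the calls of SDS alone and 69.6% of those with Topsym, and 770 were called in opposite ways. The difference of the step between the arms, tested as an interaction, was called for 7166 genes (37.3%), positive for 3527 and negative for 3639.

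The medians of the small proline-rich, Lce1 and stress keratin genes were above 0 in both arms, with differences by family. Hemidesmosome genes did not follow this, as none was called higher with Topsym. The median log2 change of the small proline-rich genes was 4.58 in SDS alone and 2.96 with Topsym, and the interaction was positive for 12 of the 16. For the Lce1 genes the median was 2.89 in SDS alone and 3.72 with Topsym, with 12 of 14 interactions negative. The stress keratins had medians of 2.28 in SDS alone and 0.99 with Topsym, with 4 positive interactions; Krt6a with Topsym had 100679 and 92522 at day 5, against 79939.5 and 76609 at day 3, so it was already high at day 3 there. Mki67 with Topsym had 6523 and 7322 at day 5, against 5225 and 5240.3 at day 3. Hemidesmosome genes, 7 higher and 4 lower of 12 in SDS alone, were 0 higher and 10 lower with Topsym, and 9 of the 12 interactions were positive and 2 negative.

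The inflammatory falls were larger in SDS alone for part of the genes. Neutrophil surface receptors had a median of -3.51 in SDS alone and -1.299 with Topsym, and 12 of the 18 interactions were negative. Some receptors had almost no reads to lose with Topsym. Ly6g had no read there at day 3 or day 5, and Mrgpra2b had 1.64 and 0 at day 3. The day 3 levels of the other receptors with Topsym are not given here. Cxcl5 with Topsym had 0 and 0 at day 5, against 21.3 and 12.1 at day 3. Saa3 with Topsym had 1517 and 1540.04 at day 5, against 1364 and 1486 at day 3. At day 3 the levels of Cxcl5 and Saa3 were thus lower with Topsym than in SDS alone. Ptgs2 went the other way: with Topsym it had 133 and 168 at day 5, against 1882 and 1827 at day 3. Its log2 change was -3.62 with Topsym and -2.09 in SDS alone. S100a9 with Topsym had 27738 and 27973 at day 5, against 1519 and 1352 at day 3; its log2 change was 4.28 there and 2.85 in SDS alone. Skeletal muscle genes had a median of -2.15 in SDS alone and -0.68 with Topsym, with 18 negative interactions. Adipocyte and endothelial medians were -3.54 and -3.15 in SDS alone, and -3.04 and -2.65 with Topsym.

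**Figure D5:**
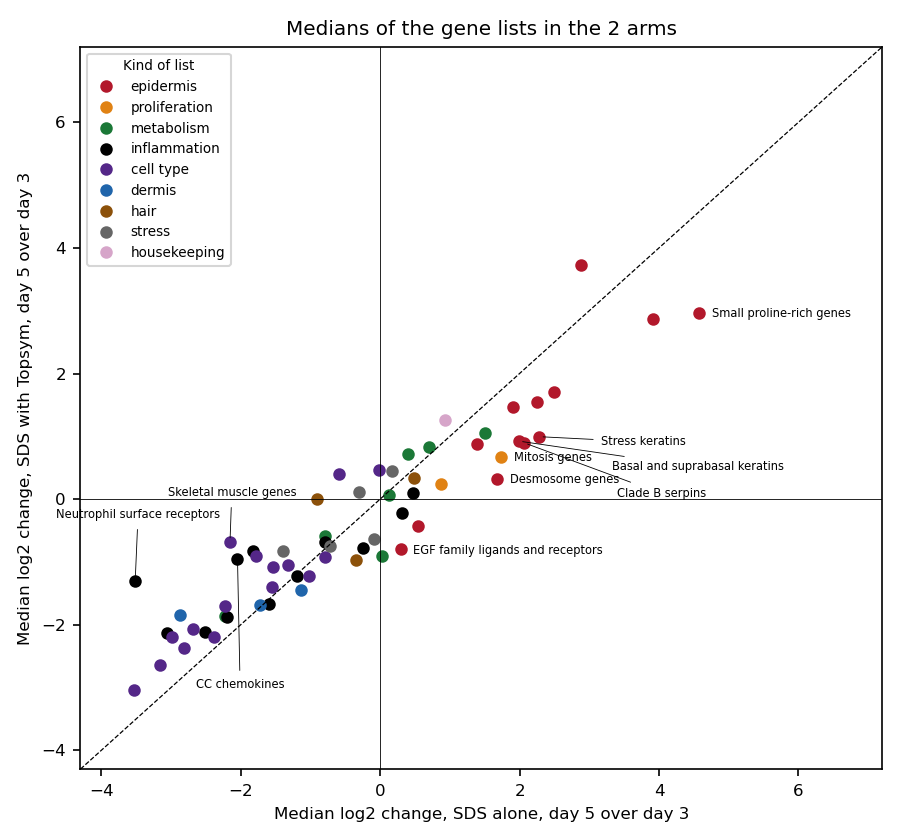
Each point is a gene list, placed by its median log2 change from day 3 to day 5 in SDS alone (x axis) and in SDS with Topsym (y axis); colours give the kind of list and the dashed line marks equal medians. Small proline-rich genes, stress keratins and mitosis genes lie below the line at positive values, and neutrophil surface receptors and skeletal muscle genes lie above it at negative values.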

How the data were processed

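Total RNA of whole skin was sequenced in 16 libraries, 2 in each of 8 groups. Per the submitters' processing notes, Trim Galore 0.6.7, HISAT2 2.2.1, featureCounts 2.0.3, DESeq2 2.11.40.8 and the build mm10 were used; the strand setting of the counting is not stated there. The deposited table holds a signal per gene, reads divided by a size factor, as the authors normalised it; whole reads were recovered from the value steps in 15 libraries (tolerance 0.001). Genes with at least 10 in at least 2 libraries were tested with limma 3.58.1 (R 4.3.3) on log2(value + 1), with a trended variance. All 8 groups were in 1 fit (8 residual degrees of freedom), with Benjamini-Hochberg adjustment and a threshold of 0.05. Fold changes of low genes depend on the pseudocount on this scale and can be understated. Where a library was at 0, as for Ptx3 at day 5, they can instead exceed the ratio of the day means. Simulated data with known changes in a small part of the genes were run through the same fits. They lacked the shift in composition between the days seen here, so they do not bear on the calls above. As alternatives, edgeR 4.0.16 and DESeq2 1.42.0 were run on the recovered reads of 14 libraries, with other scalings, pseudocounts, filters and library subsets. Named were the 15 genes with the largest called rise and the 15 with the largest called fall (day mean of the higher day 100 or more, libraries of the days not overlapping, predicted gene models left out), up to 4 members of each list with the largest called changes, and 24 followed genes; some of the genes so chosen are not reported here. Lists and members were chosen with earlier results of these data known, so their directions are not independent evidence. Other genes named as the exceptions or for contrast, such as members that moved against their list, were chosen after their values were seen. Promoters are from RefSeq GRCm38.p6. Gene coordinates are from a GENCODE annotation of the same build, in which the start of a gene can differ from that of RefSeq. Figures were drawn with matplotlib 3.10.9.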

Additional observations from a re-analysis of the deposited data

Results flagged for a closer look

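For 20 of the 30 leading genes the step from day 3 to day 5 differed between SDS alone and SDS with Topsym by the interaction in limma, with Benjamini-Hochberg adjustment over all genes; of all genes tested, 37.3% were called for it. These genes were chosen for the largest changes in SDS alone, which favours a larger change there than with Topsym, so neither their number nor the direction of the differences is independent evidence. The values are the log2 change of SDS alone minus that of SDS with Topsym, and no explanation was weighed. Among the genes that rose, the difference was 2.06 (SE 0.67, adjusted p = 0.0235) for Sprr2k, 3.51 (SE 0.52, adjusted p = 5.47e-05) for Rnase2b, 2.84 (SE 1.06, adjusted p = 0.0456) for Sprr2b and 4.21 (SE 0.92, adjusted p = 0.00171) for Uox. It was 2.76 (SE 0.29, adjusted p = 1.51e-06) for Sprr2i, 2.79 (SE 0.81, adjusted p = 0.0121) for Spink12, 2.99 (SE 0.64, adjusted p = 0.00143) for Serpinb3a and 1.102 (SE 0.25, adjusted p = 0.00229) for Serpinb12. For Alox8 it was 4.13 (SE 0.72, adjusted p = 0.000237), for Rptn 1.63 (SE 0.102, adjusted p = 4.61e-09) and for Lce3b 1.403 (SE 0.48, adjusted p = 0.0307). In each of these the log2 change was the higher one in SDS alone.

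Among the genes that fell, the difference was -4.39 (SE 0.94, adjusted p = 0.00139) for Cxcl5, -3.94 (SE 1.14, adjusted p = 0.0122) for Fgf23, -2.57 (SE 0.32, adjusted p = 1e-05) for Trarg1 and -4.07 (SE 0.83, adjusted p = 0.000984) for Ppbp. It was -7.09 (SE 0.99, adjusted p = 3.19e-05) for Ly6g, -6.32 (SE 1.04, adjusted p = 0.000153) for Mrgpra2b and -2.68 (SE 0.43, adjusted p = 0.000109) for Plin1. For Ggt1 it was -3.86 (SE 1.08, adjusted p = 0.00973), and for Prok2 -2.598 (SE 0.99, adjusted p = 0.049). In each of these the log2 change was the lower one in SDS alone. Differences of genes with 0 reads in a group depend on the pseudocount and are no bound. With Topsym, Ly6g had no read at day 3 or day 5, so it could not fall there. For the other 10 leading genes, Akr1d1, Wfdc12, Sprr2a1, Cstdc6, Ptx3, Pck1, Lep, Klb, Slc22a3 and Vnn1, the interaction was not called, which does not show that the arms acted alike.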

How the results depend on the processing

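Under the alternatives of scaling, filter, pseudocount, tool and left-out library, 273 of 294 genes, those the naming rule gave and those named after their values were seen, kept their direction and side of the threshold in all runs. A call was lost in at least 1 run for 17, gained for 3 (Cd3e, Krt15 and Hbb-bs), and the direction turned in at least 1 for 3, all of small changes. As CPM and with total scaling, Hcar2 came to -0.0771 and -0.0777 and Hba-a1 to -0.2 and -0.2012; Krt15 came to 0.0356 with TMM scaling, 0.0311 by edgeR, and between -0.0621 and 0.0291 without 1 library in turn. Leaving out each of the 4 libraries in turn gave between 10590 and 11376 calls, against 12174 with all, and the 4 libraries alone gave 10448. Pairing by replicate number was not supported by the deviations of same-numbered libraries (r = -0.018 in SDS alone), and the fit with the replicate block gave 12111 calls. edgeR gave 12127 and DESeq2 11785. With a change of at least 2-fold required, 6559 genes were called, 2205 higher and 4354 lower, 5987 with Topsym and 2588 for the difference of the arms.

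Medians of lists near 0 changed sign. Scaled as CPM and by totals, fatty acid synthesis genes came to -0.131 and -0.134, mitochondrially encoded genes to -0.234 and -0.234, and NRF2 targets to -0.0922 and -0.0929. The interleukin 17, 20 and 22 axis came to -0.0378 as CPM, and red blood cell genes to 0.0342 with TMM scaling. Without 1 library in turn, the medians ran between -0.0691 and 0.117 for mitochondrially encoded genes, -1.09 and 0.11 for pigment cell genes, 0 and 0.879 for inner root sheath genes, and -0.0657 and 0.0769 for red blood cell genes. The causes were not tested. Low genes are limited by the depth of the day 5 libraries.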
